A study of Oryza sativa with 32 samples.

Results

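The 8 genes described here encode the TIFY10 and TIFY11 proteins of rice, which belong to the JAZ family of jasmonate repressors. They were taken by identifier from the count table, in which they are 8 of 37829 genes, by a rule that uses no measured value. The members are TIFY10A (OS03G0402800), TIFY10B (OS07G0615200), TIFY10C (OS09G0439200), TIFY11A (OS03G0180800), TIFY11B (OS03G0181100), TIFY11C (OS03G0180900), TIFY11D (OS10G0392400) and TIFY11E (OS10G0391400). TIFY11A, TIFY11C and TIFY11B lie close together on chromosome 3, in that order, and TIFY11E and TIFY11D lie near each other on chromosome 10. Members of such clusters are similar in sequence, so reads that map to more than 1 of them can be split or lost in counting.

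JAZ proteins bind MYC-type transcription factors and hold back jasmonate-responsive genes. When the hormone is conjugated to isoleucine, the F-box receptor COI1 takes hold of the repressors and marks them for destruction, which frees the factors. JAZ genes are themselves induced by jasmonate, which closes a feedback loop, and in rice the hormone is known for making florets open and for its part in anther and spikelet development.

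The samples were panicles (flowering heads) of Oryza sativa IR64, an indica rice described in the labels as a land variety. The plants grew untreated on a field plot at IRRI in the Philippines in a dry season and were sampled at 50% flowering. Each of 8 times had 4 poly(A)-selected libraries: dawn, 3.5, 7 and 10.5 h after dawn, dusk, and 14, 17.5 and 21 h after dawn, 32 in all. No clock hour is given for dusk, the series text speaks of steps of about 3 h, and nothing in the labels ties the 4 libraries of a time to separate plants or plots. The p-values therefore cover the spread between libraries, part or all of which may be technical.

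Library totals ran from 10.8 to 43.9 M counts with a median of 16.8 M. The panicle label was checked with 6 floral organ identity genes, which summed to 1124 CPM or more in every library. A library's log2 levels correlated with the mean of the other libraries of its time at r between 0.886 and 0.991, and 4 libraries stood apart: library 4 of dawn (0.886), library 3 of 21 h (0.915), library 3 of 10.5 h (0.922) and library 1 of dusk (0.922). The 3 mature pollen marker genes summed to between 1.23 and 94.2 CPM, and 4 tapetum genes (the tapetum is the nursing tissue of the anther) to between 5.31 and 60.2 CPM, with libraries of 1 time far apart. In bulk tissue, fewer cells of a type and less RNA per cell cannot be told apart.

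Transcripts of 6 of the 8 genes had their highest mean at 3.5 h after dawn, while TIFY10C was highest at 10.5 h and TIFY11E at 7 h. The share of all genes highest at 3.5 h is not given here, so this count is a description only. Over the 8 times, 6 of the 8 changed in edgeR's quasi-likelihood test (adjusted p under 0.05), where 42.1% of the 25766 genes tested did so. TIFY10C had the lowest adjusted p (2.3e-06), followed by TIFY11C (4.2e-04), TIFY10B (0.00119), TIFY11B (0.00666), TIFY11A (0.0125) and TIFY11E (0.0129), all by edgeR. TIFY10A and TIFY11D did not pass, with edgeR adjusted p of 0.163 and 0.213. All 8 passed the filter on low counts, though TIFY11E had no more than 28 counts in any library and as few as 1.

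**Figure D1:**
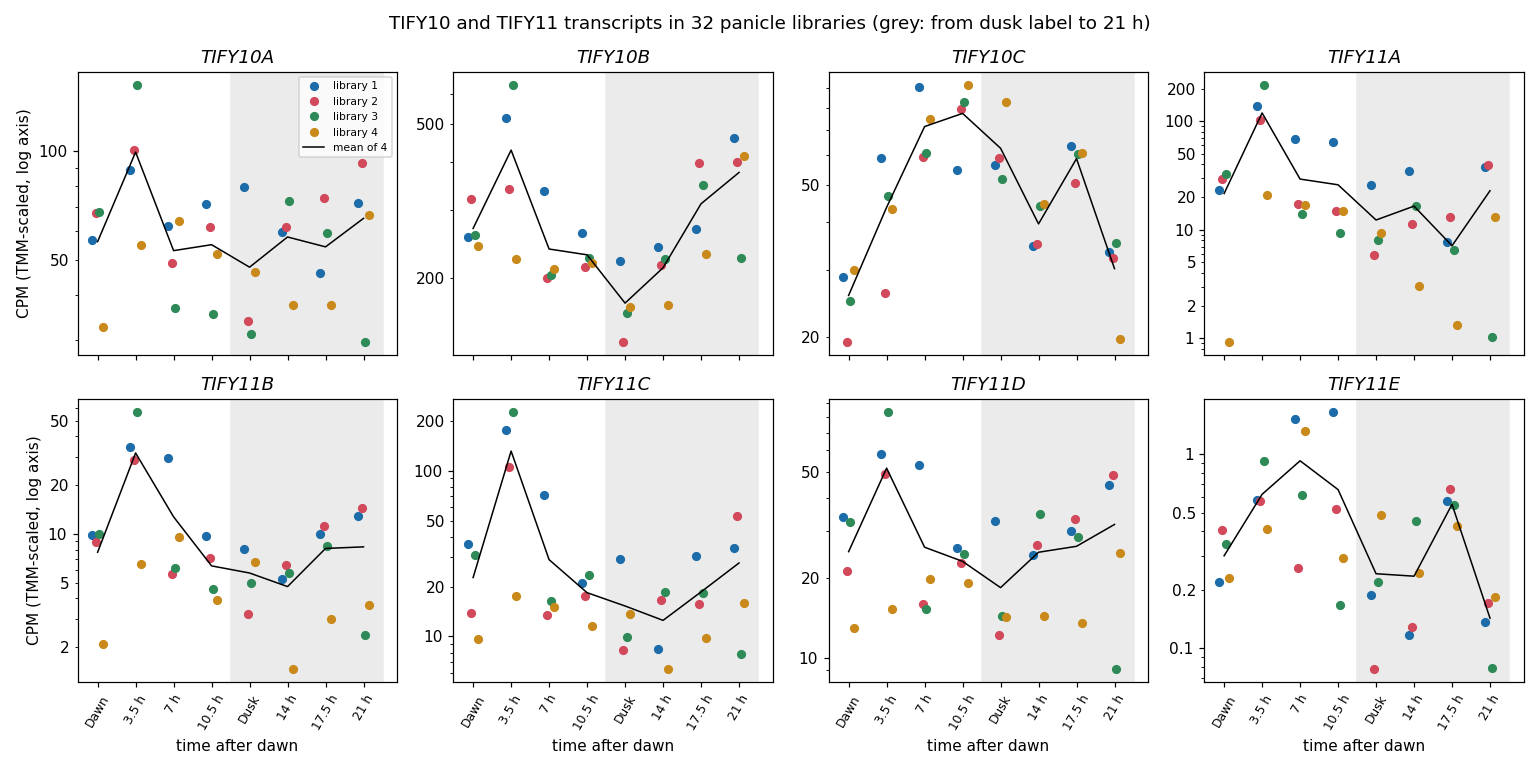
Level of each gene in each library (points, CPM scaled with TMM factors, log axis) at the 8 times after dawn, with the mean of 4 libraries as a line and grey from dusk to 21 h. Of the 8 genes, 6 have their highest mean at 3.5 h, where library 4 lies below the other libraries. The share of all genes highest at 3.5 h is not given here. TIFY10C has its highest mean, 77.3 CPM, at 10.5 h.

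TIFY10C, which in rice binds COI1 and takes part in jasmonate-induced resistance to bacterial blight, was low at dawn and built up through the light hours. It stood at 28.6, 19.4, 24.8 and 29.9 CPM in libraries 1 to 4 of dawn and at 59.0, 26.1, 46.8 and 43.2 CPM at 3.5 h. It then had 90.5, 59.5, 60.8 and 74.7 CPM at 7 h, and 54.9, 79.4, 83.1 and 92.0 CPM at 10.5 h. Every library of 7 and 10.5 h was above every library of dawn. After the light hours it had 56.6, 58.9, 51.9 and 83.0 CPM at dusk and 34.6, 35.1, 44.0 and 44.6 CPM at 14 h. At 17.5 h it had 63.3, 50.6, 60.5 and 60.8 CPM, all above the 14 h libraries, and 21 h was low again at 33.5, 32.2, 35.3 and 19.7 CPM. From the highest mean to the lowest, the times ran 10.5 h, 7 h, dusk, 17.5 h, 3.5 h, 14 h, 21 h and dawn, and the ranges of neighbours in this order overlapped. The difference between times held 79.9% of the variance of its log2 level, a larger share than in 92.6% of all genes tested.

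TIFY11C had its high values in the morning. It had 35.9, 13.9, 31.2 and 9.71 CPM in libraries 1 to 4 of dawn, and 175, 106, 226 and 17.7 CPM at 3.5 h. At 7 h it had 71.2, 13.5, 16.5 and 15.1 CPM, and at 10.5 h 21.0, 17.5, 23.4 and 11.6 CPM. Of the 4 libraries of 3.5 h, 3 were above all other libraries of the day, and library 4 was within the range of dawn. Means from dusk to 17.5 h lay between 12.5 ± 6.02 CPM at 14 h and 18.6 ± 8.70 CPM at 17.5 h, while 21 h had a mean of 27.7 ± 20.1 CPM (SD, n = 4 each).

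TIFY11A and TIFY11B, the neighbours of TIFY11C, were also high in libraries 1 to 3 of 3.5 h. TIFY11A, which in rice is known for raising salt and dehydration tolerance when overexpressed, had 23.2, 29.6, 32.6 and 0.925 CPM in libraries 1 to 4 of dawn and 137, 102, 217 and 21.1 CPM at 3.5 h. It averaged 29.3 ± 26.4 CPM at 7 h, 26.0 ± 26.2 CPM at 10.5 h and 12.3 ± 9.20 CPM at dusk, and was lowest at 17.5 h with 7.71, 13.0, 6.48 and 1.33 CPM (SD, n = 4 each). Its libraries spanned 0.925 to 217 CPM, a 235-fold range, and within a time its log2 level had an SD of 1.62, above that of 96.3% of genes. TIFY11B, which is known in rice for larger grains when overexpressed, had 9.80, 8.92, 10.1 and 2.08 CPM at dawn and 34.5, 28.7, 56.7 and 6.57 CPM at 3.5 h. It averaged 12.8 ± 11.4 CPM at 7 h and between 4.74 ± 2.24 and 8.33 ± 6.18 CPM at the 5 later times (SD, n = 4 each). The overall calls of TIFY11A and TIFY11B rest on library 3 of 3.5 h: without it the edgeR adjusted p was 0.0942 and 0.0798. With limma-trend on the deposited CPM it was 0.0874 and 0.0623.

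TIFY10B was high both in the early light and at the end of the night. It had 255, 319, 258 and 242 CPM in libraries 1 to 4 of dawn and 518, 339, 633 and 224 CPM at 3.5 h. At dusk it had 221, 136, 162 and 168 CPM, all below the libraries of dawn, and at 21 h 460, 400, 226 and 414 CPM. Its means in between were 237 ± 65.6 CPM at 7 h, 229 ± 22.1 CPM at 10.5 h, 212 ± 30.1 CPM at 14 h and 311 ± 76.0 CPM at 17.5 h (SD, n = 4 each). TIFY10A, the third member of the TIFY10 group, averaged 99.6 ± 40.8 CPM at 3.5 h and between 47.7 ± 22.3 CPM at dusk and 65.2 ± 26.3 CPM at 21 h at the other times (SD, n = 4 each). TIFY11D averaged 51.5 ± 28.3 CPM at 3.5 h and between 18.4 ± 9.55 CPM at dusk and 31.7 ± 18.2 CPM at 21 h elsewhere (SD, n = 4 each). TIFY10A passed the test over the 8 times with the pollen score in the fit (edgeR adjusted p = 0.0024) and without the 4 libraries that stood apart (0.0066), and TIFY11D without those 4 libraries (0.033). TIFY11E was barely detected and averaged 0.924 ± 0.586 CPM at 7 h and 0.143 ± 0.0469 CPM at 21 h (SD, n = 4 each), with counting error beside the spread shown.

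A single wave of 24 h was then fitted to ask when each gene peaks. It was called in 5 of the 8 genes by edgeR, against 47.4% of all genes. The peak hour and amplitude (peak against mean, log2) that follow come from a least-squares fit of log2 CPM, and the adjusted p from edgeR. The 3 TIFY11 genes of chromosome 3 peaked in the morning: TIFY11C at 3.11 ± 1.07 h (amplitude 0.96, adjusted p = 1.6e-04), TIFY11B at 3.62 ± 1.195 h (0.81, 0.00178) and TIFY11A at 4.92 ± 1.05 h (1.39, 0.00175). For TIFY10B the fitted peak was at 23.6 ± 1.05 h with an amplitude of 0.41 (edgeR adjusted p = 0.0016), and for TIFY10C at 10.2 ± 0.72 h with 0.61 (6.5e-05). The fitted peak of TIFY10B fell in a dip: its mean was 375 CPM at 21 h, 268 CPM at dawn and 429 CPM at 3.5 h. The wave held 37.3% of the variance of TIFY10B and does not give the hour of its highest level. The errors are standard errors of the fit. TIFY10A, TIFY11D and TIFY11E did not pass, with edgeR adjusted p of 0.136, 0.108 and 0.0652. TIFY11E passed with dusk set at 13 h (0.0426), and without library 2 of 7 h (0.0448) or without library 1, 2 or 3 of 17.5 h (0.0377, 0.0335 and 0.0458). TIFY10A passed with the pollen score in the fit (0.0247), and both TIFY10A (0.0172) and TIFY11D (0.0161) passed without the 4 libraries that stood apart. The wave held 29.8% of the variance of TIFY11C, 26.5% of that of TIFY11A, 24.2% of that of TIFY11B and 53.8% of that of TIFY10C. For the 3 TIFY11 genes of chromosome 3 the fitted hour is thus that of a smooth curve, and their highest means were at 3.5 h.

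The late light hours were compared with the early ones, since earlier results of these data had TIFY11C highest at 3.5 h and TIFY10C at 10.5 h. Between 10.5 h and 3.5 h, 4 of the 8 genes were called by edgeR, against 19.2% of all genes. As the times were chosen for the pattern of TIFY10C and TIFY11C, the p-values of these genes describe that pattern and do not test it. The same limit holds for the count and for the median of the 8 genes, which include both. It extends to the p-values of members that moved with TIFY11C. Over the 32 libraries without centring, TIFY10A, TIFY10B, TIFY11A, TIFY11B and TIFY11D had r between 0.740 and 0.917 with it. TIFY10C was higher at 10.5 h, by 0.82 ± 0.21 on the log2 scale (edgeR adjusted p = 0.00665), a direction called in 10.7% of genes. The other 3 were lower at 10.5 h, as 8.56% of genes were: TIFY11C by a log2 difference of -2.83 ± 0.69 (a 7.13-fold lower level, edgeR adjusted p = 0.00351), TIFY11B by -2.32 ± 0.66 (0.0125) and TIFY10B by -0.90 ± 0.25 (0.0112). The calls of TIFY11B and TIFY10B were lost without library 3 of 3.5 h (0.0656 and 0.0867). TIFY11A (-2.20 ± 0.94), TIFY11D (-1.16 ± 0.49) and TIFY10A (-0.86 ± 0.35) were not called, at edgeR adjusted p of 0.108, 0.103 and 0.0873. TIFY11D and TIFY10A passed without library 4 of 3.5 h (0.0283 and 0.0333), TIFY10A with the pollen score in the fit (0.00411), and TIFY11A without library 1 of 10.5 h (0.0347), with the replicate number as a block (0.0443) and with the pollen score in the fit (0.00785). The median log2 difference of the 8 genes was -1.03, beside 0.03 over all genes tested.

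The log2 ratio of TIFY10C to TIFY11C within each library set the pair side by side. It averaged 1.98 ± 0.63 at 10.5 h and -1.13 ± 1.58 at 3.5 h (SD, n = 4 each). The difference was 3.10, and between 2.74 and 3.88 without 1 library. The pair and the times were chosen for this pattern, so the values are a description and no p is given.

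Step by step, edgeR called 7 of the 56 changes between neighbouring times (8 genes by 7 steps), against 5.00% over all genes and steps. From dawn to 3.5 h, TIFY10C was higher at 3.5 h by 0.77 ± 0.22, TIFY11B by 2.03 ± 0.65 and TIFY11C by 2.53 ± 0.68 on the log2 scale (edgeR adjusted p = 0.0196, 0.0414 and 0.0151), where 11.5% of genes were called. From 3.5 h to 7 h, with 8.62% of genes called, TIFY10C was higher at 7 h by 0.70 ± 0.21 (0.0379), whereas TIFY10B and TIFY11C were lower at 7 h by log2 differences of -0.85 ± 0.25 and -2.18 ± 0.67 (0.0328 and 0.0399). TIFY10C was lower at 21 h than at 17.5 h by -0.96 ± 0.22 (0.00407), in a step with 8.57% of genes called. In the 4 steps between 7 and 17.5 h no member was called by edgeR. Of all genes, 4.15% were called between 7 and 10.5 h, 0.186% between 10.5 h and dusk, 0.625% between dusk and 14 h and 1.37% between 14 and 17.5 h. In these 4 steps, the unadjusted p was under 0.05 for TIFY10B between 14 and 17.5 h (0.0374), for TIFY10C between dusk and 14 h (0.00469) and between 14 and 17.5 h (0.0129), and for TIFY11E between 10.5 h and dusk (0.0277). The first 6 of the 7 called steps were each lost when single libraries of their times were left out, library 3 of 3.5 h among them in all 6, and the fall of TIFY10C at 21 h was not lost in any such fit. With library totals in place of TMM factors the step of TIFY10C to 3.5 h was also lost (0.111). Limma-trend on the deposited CPM called neither that step (0.131) nor those of TIFY11B to 3.5 h (0.0553) and TIFY11C to 7 h (0.053).

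Of the light transitions, dusk against dawn called 1 of the 8 genes by edgeR, against 22.1% of all genes. TIFY10C averaged 62.6 ± 13.9 CPM at dusk and 25.7 ± 4.73 CPM at dawn (SD, n = 4 each), higher at dusk by 1.28 ± 0.22 on the log2 scale (edgeR adjusted p = 6.2e-05), a direction called in 11.5% of genes. The level of TIFY10B differed by -0.64 ± 0.25 (0.0677). It passed with DESeq2 (0.0436), with the replicate number as a block (0.0477), with the pollen score in the fit (0.0361) and without library 1 of dusk (0.0390), library 3 or 4 of 3.5 h (0.0347 and 0.0398) or library 3 of 21 h (0.0487). The 6 other genes had log2 differences between -0.82 and -0.24, none called. Without the 4 libraries that stood apart, TIFY10B (0.0249) and TIFY10A (-0.78, 0.0491) were called as lower at dusk.

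At night (14, 17.5 and 21 h) against day (3.5, 7 and 10.5 h), 5 of the 8 genes were called by edgeR and all 5 were lower at night. Of all genes, 26.4% were called and 14.0% were lower; with library totals in place of TMM factors the share of higher calls among all calls was 67.3%, against 46.7% with TMM. TIFY10C differed by -0.59 ± 0.12 on the log2 scale (edgeR adjusted p = 5.9e-04) and TIFY11E by -1.39 ± 0.36 (0.00462). TIFY11A differed by -1.69 ± 0.54 (0.0208), TIFY11C by -1.14 ± 0.38 (0.0251) and TIFY11B by -0.995 ± 0.37 (0.0468). In TIFY11A and TIFY11E every day mean was above every night mean, but not in the other called genes. TIFY11C averaged 131 CPM at 3.5 h but 18.4 CPM at 10.5 h, beside 27.7 CPM at 21 h. TIFY11B averaged 31.6 CPM at 3.5 h but 6.36 CPM at 10.5 h, beside 8.15 and 8.33 CPM at 17.5 and 21 h. TIFY10C averaged 43.8 CPM at 3.5 h and 58.8 CPM at 17.5 h. TIFY10B stood at 0.03 ± 0.14, TIFY10A at -0.17 ± 0.20 and TIFY11D at -0.19 ± 0.28, none called. The call of TIFY11A was lost without library 1 of 7 h (0.0574) or library 1 of 10.5 h (0.0625), and that of TIFY11C without library 3 of 3.5 h (0.0575) or library 1 of 7 h (0.0913). The call of TIFY11B held in 13 of the 32 fits with 1 library left out and was weakest without library 1 of 7 h (0.146). By limma-trend on the deposited CPM neither TIFY11B (0.0755) nor TIFY11C (0.0631) was called.

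Libraries of 1 time differed together in these genes, and the same order was not counted over all genes. Library 4 of 3.5 h was the lowest of its time in 7 of the 8 genes, and library 3 the highest in 7. At 7 h library 1 was the highest in 7, at 17.5 h library 4 was the lowest in 7, and at 21 h library 3 was the lowest in 7. TIFY10C was not among the low genes in library 3 of 21 h, where its 35.3 CPM was the highest of that time.

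**Figure D2:**
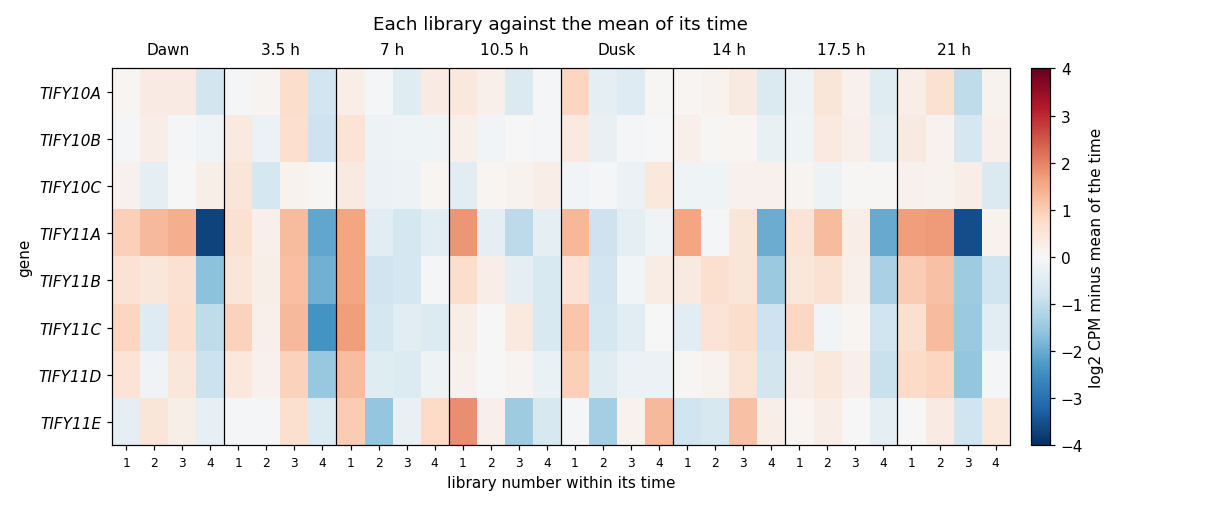
Each gene (rows) in each library (columns, 4 per time), as log2 CPM minus its mean at that time. The blue columns of library 4 of 3.5 h and library 3 of 21 h run through TIFY10A, TIFY10B and the TIFY11 genes and not through TIFY10C, and the red column of library 1 of 7 h is strongest in the TIFY11 genes.

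With each gene centred within its time over the 32 libraries, the 15 pairs without TIFY10C and TIFY11E had Pearson's r between 0.694 and 0.944 and Spearman's rho between 0.627 and 0.934. With the 2 libraries farthest from the median left out, r lay between 0.594 and 0.924. Each of these pairs passed within-time permutation (100000 permutations, adjusted over the 28 pairs, highest p = 0.0018). The share of all gene pairs that would pass was not computed, so the count is not read as particular to the family. TIFY11C and TIFY11D, on different chromosomes, had the highest r (0.944, rho 0.934, adjusted permutation p = 3.5e-05, the smallest reached by any pair). Of 25765 other genes tested, TIFY11D was the one most like TIFY11C by this measure. TIFY11A and TIFY11B had r = 0.897 and rho = 0.897 (adjusted permutation p = 3.5e-05), and TIFY11B ranked 143 of the 25765 genes by likeness to TIFY11A. The member most like TIFY10A was TIFY11A (r = 0.860), which ranked 273, so many genes outside the family were closer to these members. TIFY10C had r between -0.21 and 0.17 with the 7 other genes and passed with none. TIFY11E had r between 0.361 and 0.510 with the 6 others, and counting error adds to its spread.

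**Figure D3:**
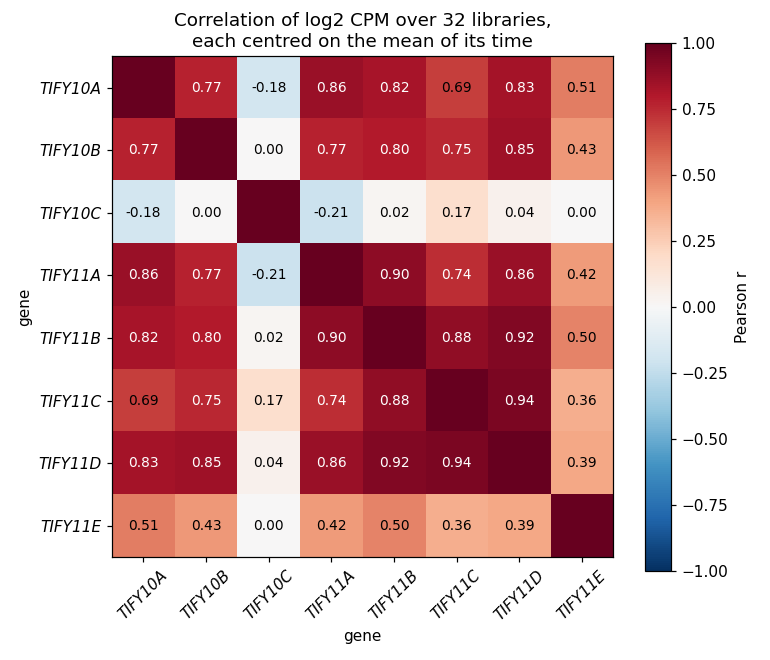
Pearson's r between the log2 CPM of each pair of genes over 32 libraries after centring within times. The block of TIFY10A, TIFY10B and TIFY11A to TIFY11D lies between 0.694 and 0.944, and the row of TIFY10C between -0.21 and 0.17.

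As a description over the 32 libraries without centring, the genes most like the mean of the family were OS10G0393800 (r = 0.911) and OS06G0713000 (r = 0.905), which the files do not pair with names. After centring they were OS09G0309500 and OS01G0179000, both at r = 0.934.

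A mature pollen score, the mean log2 CPM of 3 pollen marker genes centred within each time, was set against each gene as a slope. By edgeR 3 of the 8 genes followed it, against 41.5% of all genes. TIFY10A rose by 0.24 ± 0.04 on the log2 scale for each unit of the score (edgeR adjusted p = 2.0e-05) and TIFY11A by 0.54 ± 0.13 (0.00145), while 19.5% of genes were called as higher. TIFY10C fell by 0.10 ± 0.03 per unit (0.0157), with 22.0% of genes called as lower. TIFY11B, TIFY11C, TIFY11D, TIFY11E and TIFY10B had slopes of 0.25, 0.10, 0.17, 0.23 and 0.09, none called in the main fit. TIFY11B passed with DESeq2 (adjusted p = 0.0191). Of the 32 fits with 1 library left out, TIFY11B and TIFY10B passed in 5 each, TIFY11D in 3, TIFY11E in 1 and TIFY11C in 0. The slope of TIFY11A was lost without the 4 libraries that stood apart (edgeR adjusted p = 0.106), and that of TIFY10C without library 1 of 3.5 h (0.0504) or library 1 of 10.5 h (0.0677). On a tapetum score in its place TIFY10C was not called (0.196) and TIFY11E was (0.0256). Of the libraries named above, library 4 of 3.5 h (lowest in 7 genes) had a score of 0.19 and library 1 of 7 h (highest in 7) had -0.59. Library 3 of 3.5 h (highest in 7) had 0.73, library 4 of 17.5 h (lowest in 7) -1.39 and library 3 of 21 h (lowest in 7) -2.496. Whether pollen content lies behind these library differences was not tested. With the score in the fit, edgeR called 7 of the 8 genes over the times, 5 at night against day and 6 between 10.5 and 3.5 h. Without the 4 libraries that stood apart it called 8, 4 and 4. The count over the times also moved for all genes, from 10852 in the main fit to between 10396 and 15235 under the alternative settings. The shares of all genes called in these fits are not given here, so a gain cannot be read as particular to the members.

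**Figure D4:**
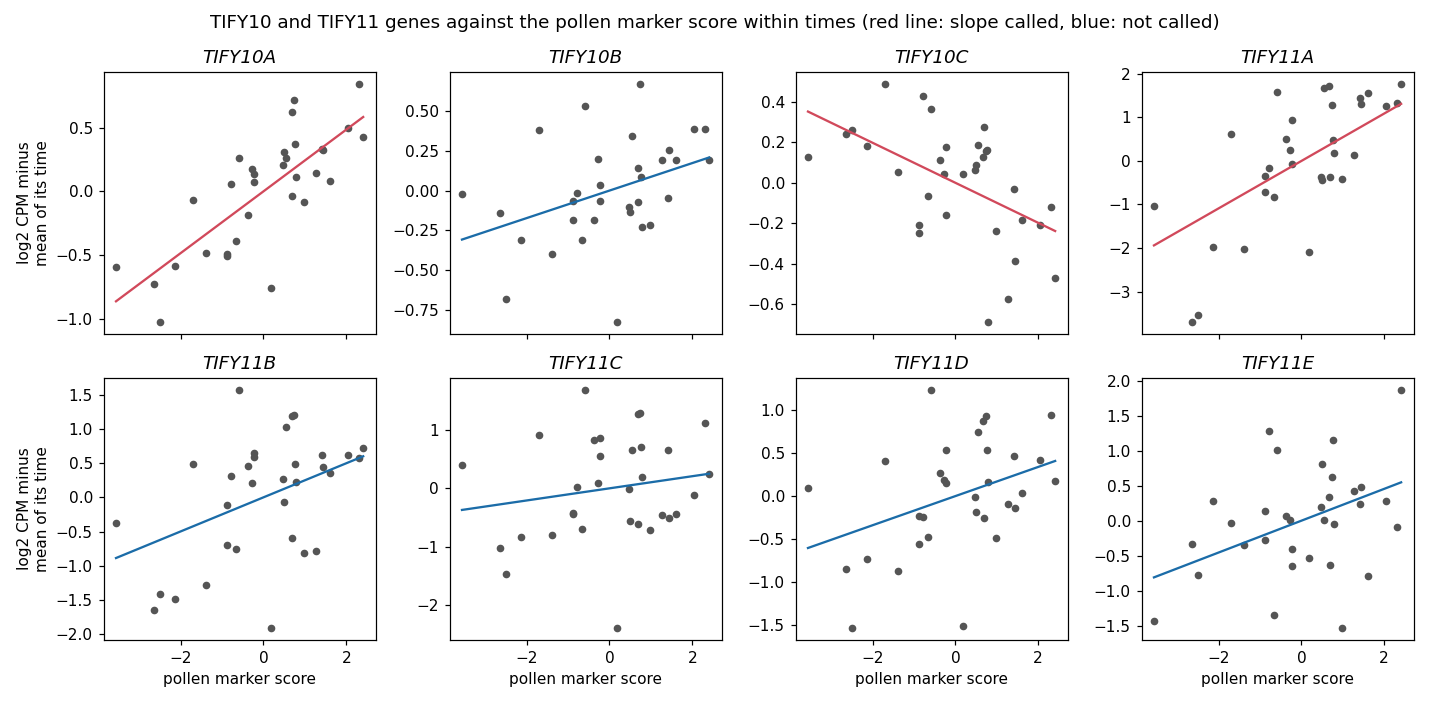
Each gene's log2 CPM minus the mean of its time (vertical) against the pollen marker score centred within times (horizontal) in 32 libraries, with the edgeR slope as a line. TIFY10A (0.24) and TIFY11A (0.54) have called positive slopes and TIFY10C a called negative slope (-0.10), drawn in red, and the 5 slopes in blue were not called.

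The other genes of the jasmonate pathway were followed in a list of 16, all of which passed the filter. Of these, 8 changed over the 8 times by edgeR, against 42.1% of all genes, and 2 of the 8 are counted without a name. In hormone synthesis, AOC (allene oxide cyclase) was highest at 3.5 h with 158 ± 43.1 CPM and lowest at dawn with 74.7 ± 13.9 CPM (edgeR adjusted p = 9.1e-05). OPR7, the reductase of the next step, was highest at 3.5 h with 152 ± 41.7 CPM and lowest at dusk with 87.4 ± 13.8 CPM (edgeR adjusted p = 0.0392, lost in 15 of the 32 fits with 1 library left out). AOS1 (allene oxide synthase) had 36.8 ± 9.79 CPM at 3.5 h and 22.7 ± 4.38 CPM at dawn (edgeR adjusted p = 0.0321, lost in 7 of those 32 fits). All means are of 4 libraries with their SD.

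The receptor gene COI1A was highest at 21 h (217 ± 20.8 CPM) and at dawn (215 ± 27.0 CPM) and lowest at dusk (166 ± 26.4 CPM, edgeR adjusted p = 0.0136). The repressor genes TIFY6A and TIFY6B of another branch of the family also changed. TIFY6B was highest at 21 h (414 ± 201 CPM), followed by 3.5 h (379 ± 164 CPM) and dawn (328 ± 133 CPM), and lowest at dusk (107 ± 57.3 CPM, edgeR adjusted p = 6.1e-04), and TIFY6A was highest at 3.5 h with 51.3 ± 8.80 CPM and lowest at 7 h with 32.6 ± 6.64 CPM (0.00312). Within times, OPR7 had r = 0.929 with TIFY11D and 0.905 with TIFY10B, and TIFY6B had r = 0.935 with TIFY10A, as a description over 32 libraries that share their depth and tissue make-up. With TIFY10C the r of the 16 ran from -0.58 to 0.27. On the pollen score 7 of the 16 were called by edgeR, all higher, beside 41.5% of all genes called and 19.5% higher. Between 10.5 h and 3.5 h 3 of the 16 were called, all lower at 10.5 h, beside 19.2% of all genes called and 8.56% lower.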

How the data were processed

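The authors deposited raw counts, and beside them CPM values that equalled the count over the library total, with no further scaling. The submitters' processing notes name TopHat2 (2), HTSeq (0.6.0) and the rice build IRGSP-1.0, without saying more of the steps. Neither the strand setting nor the release of the annotation is given in the sources used here. That build is of a japonica rice and the samples are indica, so reads of diverged genes can be missed. Libraries came from column-purified RNA, oligo(dT) beads and a strand-marking kit, per the labels' protocols.

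The members, lists, tests and named genes were chosen with earlier results of these data known. All 8 members, 6 floral, 4 tapetum and 12 of the 16 pathway symbols stood in a RefSeq gene table (assembly ASM3414082v1) on the chromosome and in the order of their identifiers. The 4 other pathway genes and the 3 pollen genes were paired with names from general knowledge and are only counted. Sequences and gene lengths were not used here, so levels are not compared between genes.

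Counts were tested with edgeR 4.0.16 (glmQLFit, glmQLFTest) in R 4.3.3 with TMM factors, filterByExpr (25766 genes left) and Benjamini-Hochberg adjustment over all genes at 0.05. Each fit held all 32 libraries and 1 mean per time; the wave used a cosine and a sine of 24 h with dusk at 12 h. Log2 differences carry a standard error, the difference over the square root of its F value. Levels are CPM with TMM factors; scores and correlations use log2 CPM with a prior count of 2. No 2 libraries of the same time agreed within sampling noise (chi-square per gene at least 10.7). Tested on simulated data for the 8 times (25500 genes), 24 h waves of amplitude 1 were called in 83.0% by the wave fit and 74.0% over the times, and of amplitude 0.5 in 56.1% and 36.7%. The simulated waves were put on genes drawn at random from those tested. The members had a median SD within times of 0.708 (log2), beside 0.365 over all genes, so these rates need not hold for them. Alternatives were DESeq2, limma-trend (limma 3.58.1) on log2 of the deposited CPM + 0.5, other scaling, no filter, a replicate block, the pollen score as a covariate, dusk at 13 h, a tapetum score and leaving out each library. Leaving out the 4 libraries least like their time was chosen after seeing the data. All members and all pathway genes of the list that passed over time and stood in the table are named, with the genes most like the family by correlation.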

Additional observations from a re-analysis of the deposited data

Results flagged for a closer look

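Each gene's 4 libraries at each time were checked for a library far from the others, and 8 of 64 such groups had one. For normally distributed values chance gives about 1 in 20, but the rule was applied to CPM without logarithms, which need not be normal. Groups that share a library are not independent, and the share over all genes was not computed. The count is therefore a description only. Of the 8, 5 were library 1 of 7 h, the highest of its time in each. It had 335.5 CPM of TIFY10B, where the other libraries had between 199 and 210 CPM. In TIFY11A it had 68.9 CPM and the others between 14.1 and 17.4 CPM, and in TIFY11B 29.6 CPM and the others between 5.70 and 9.56 CPM. In TIFY11C it had 71.2 CPM and the others between 13.5 and 16.5 CPM, and in TIFY11D 53.1 CPM and the others between 15.3 and 19.8 CPM. Its pollen score was -0.59.

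Library 1 of 10.5 h had 65.1 CPM of TIFY11A, with the others between 9.26 and 14.8 CPM, and a pollen score of 2.41. Library 1 of dusk, with a score of 2.31, had 32.6 CPM of TIFY11D, and the others had between 12.2 and 14.4 CPM. Library 4 of dawn, with a score of -2.63, had 2.08 CPM of TIFY11B, the lowest of its time, and the others had between 8.92 and 10.1 CPM. What these library differences come from was not tested.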

How the results depend on the processing

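The count of members called over the times was 6 (4 to 6 with 1 library left out, 4 to 8 under the other settings) and for the wave 5 (5 to 6, and 5 to 7, with 7 without the 4 libraries that stood apart). Dusk against dawn called 1 (1 to 2 with 1 library left out), 2 with DESeq2, with the replicate block or with the pollen score, and 3 without those 4 libraries. Night against day called 5 (2 to 5), and 3 with limma-trend. Between 10.5 and 3.5 h the count was 4 (2 to 6), on the pollen score 3 (2 to 6). Neighbouring steps gave 7 (1 to 8), 4 with limma-trend and 14 with the pollen score. Pathway genes gave 8 (5 to 10), and 13 with the pollen score. Over all genes 10852 were called over the times (9836 to 12084 with 1 library left out, 10396 to 15235 under the other settings). For the other comparisons the share of all genes under each setting is not given here. The TIFY10C to TIFY11C difference ran from 2.74 to 3.88 with 1 library left out.

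Directions reversed in values that were not called: the slope of TIFY11C was -0.0877 without the 4 libraries, and TIFY11E at 10.5 against 3.5 h was -0.0355 with limma-trend, -0.0299 with the replicate block and -0.17 with the pollen score (-0.97 to 0.39 with 1 library left out). Night against day ran from -0.0456 to 0.12 for TIFY10B and from -0.30 to 0.0133 for TIFY11D with 1 library left out. The cause was not tested. Library totals in place of TMM factors moved the median of all genes to 0.16 at dusk against dawn, 0.15 at 10.5 against 3.5 h and -0.24 at 21 h against 17.5 h (log2), and reversed no member.

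Same-numbered libraries of different times deviated together at correlations between -0.83 and 0.79 (mean 0.06, other numbers -0.02), and 12 of 32 libraries correlated best with their own number. Whether the numbers stand for a shared plot or plant was not tested, and the main fits held no replicate block. Depth limits TIFY11E most.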
